A study of Mus musculus with 5 samples.

Results

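The Hox cluster genes were followed in eye tumors of mice with floxed Lats1 and Lats2 and in wild-type uvea. Members were all loci of the deposited tables whose gene name was Hox, a cluster letter a to d and a number. The rule found 39 loci among 24768, each with a single name, and 38 are described: 10 in the Hoxa cluster, 10 in Hoxb, 9 in Hoxc and 9 in Hoxd. The tumor group held 3 libraries from adult mice of genotype AAV5-Cre;Lats1/2 fl/fl, in which an adeno-associated virus of serotype 5 brought Cre recombinase to floxed alleles of both Hippo pathway kinase genes. The wild-type group held 2 libraries of uvea (iris, ciliary body and choroid) from adult wild-type mice. RNA was taken from whole frozen tissue, so a difference in the number of cells of a type and a difference in RNA per cell cannot be told apart. The promoter that drives Cre, the cells the virus reached and any virus given to the wild-type mice are not known here, and the labels do not say whether each library is from its own animal. The p-values therefore measure only the spread between these samples, some of it possibly technical. Libraries are numbered within their group in the table's order.

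Hox genes encode homeodomain transcription factors that give cells along the body axis their positional identity. They stand in 4 clusters, and genes of the same number in different clusters are paralogs, with low numbers active toward the head, in the hindbrain, and high numbers toward the tail and in the distal limbs. The forebrain, the eye and the neural crest of the anterior head form in front of the Hox domain, and Polycomb complexes keep the clusters silent there.

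Libraries held 13745768, 12687703 and 14368272 estimated fragments in tumors 1, 2 and 3, and 13911934 and 12799991 in wild type 1 and 2. Across 15241 loci the Spearman correlation between libraries was 0.919 to 0.926 among tumors and 0.994 in wild type. Lats1 was at 3.43, 3.90 and 2.94 FPKM (fragments scaled for transcript length and depth) in tumors, against 7.55 and 8.86 FPKM in wild type. It fell, with a log2 fold change of −1.21 (SE 0.18, edgeR adjusted p = 0.012). Lats2 was at 12.6, 17.0 and 14.3 FPKM in tumors and at 20.05 and 20.2 FPKM in wild type, and did not pass (−0.62, SE 0.19, edgeR adjusted p = 0.058), although it passed without tumor 2 (edgeR adjusted p = 0.017). Both values cover whole loci, so they do not measure how complete the deletion was. Xist RNA, a mark of female cells, was at 0.00792, 0.00803 and 22.6 FPKM in tumors and at 3.30 and 3.05 FPKM in wild type, while the Y-linked Ddx3y was at 21.3, 14.6 and 0 FPKM in tumors and at 8.60 and 10.7 FPKM in wild type. Tumor 3 thus stood apart from tumors 1 and 2, and each wild-type library held both kinds of transcript.

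Hox transcripts were present at low level in every tumor and near 0 in wild-type uvea. Summed over the 38 loci, tumors 1, 2 and 3 held 431, 140 and 872 fragments, and wild type 1 and 2 held 11 and 14. In CPM (fragments per 1000000 fragments at named loci), the sums were 32.8, 11.3 and 61.6 in tumors (35.2 ± 25.3, SD, n = 3) and 0.813 and 1.13 in wild type (0.970 ± 0.221, SD, n = 2). Each tumor sum was above both wild-type sums, and the tumors differed among themselves by more than the wild-type libraries did. The number of animals in each library is not known, so these spreads may not compare like units. Loci with at least 3 fragments numbered 10, 8 and 18 in tumors 1, 2 and 3, and 1 in each wild-type library.

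Near 0 is used here for fewer than 3 fragments in every library of a group. By that measure 18 Hox loci were near 0 in tumors and 37 in wild type, and the same 18 were near 0 in both groups. The 1 locus above it in wild type was Hoxd8. No fragment was counted at 10 loci in all tumors, against 31 loci in both wild-type libraries, and 9 loci had none in all 5 libraries. A count of 3 fragments corresponds to 0.212 to 0.241 CPM in tumors and 0.222 and 0.241 CPM in wild type, and a listed 0 allows a level up to that limit. Intervals and limits given here cover counting error only.

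**Figure D1:**
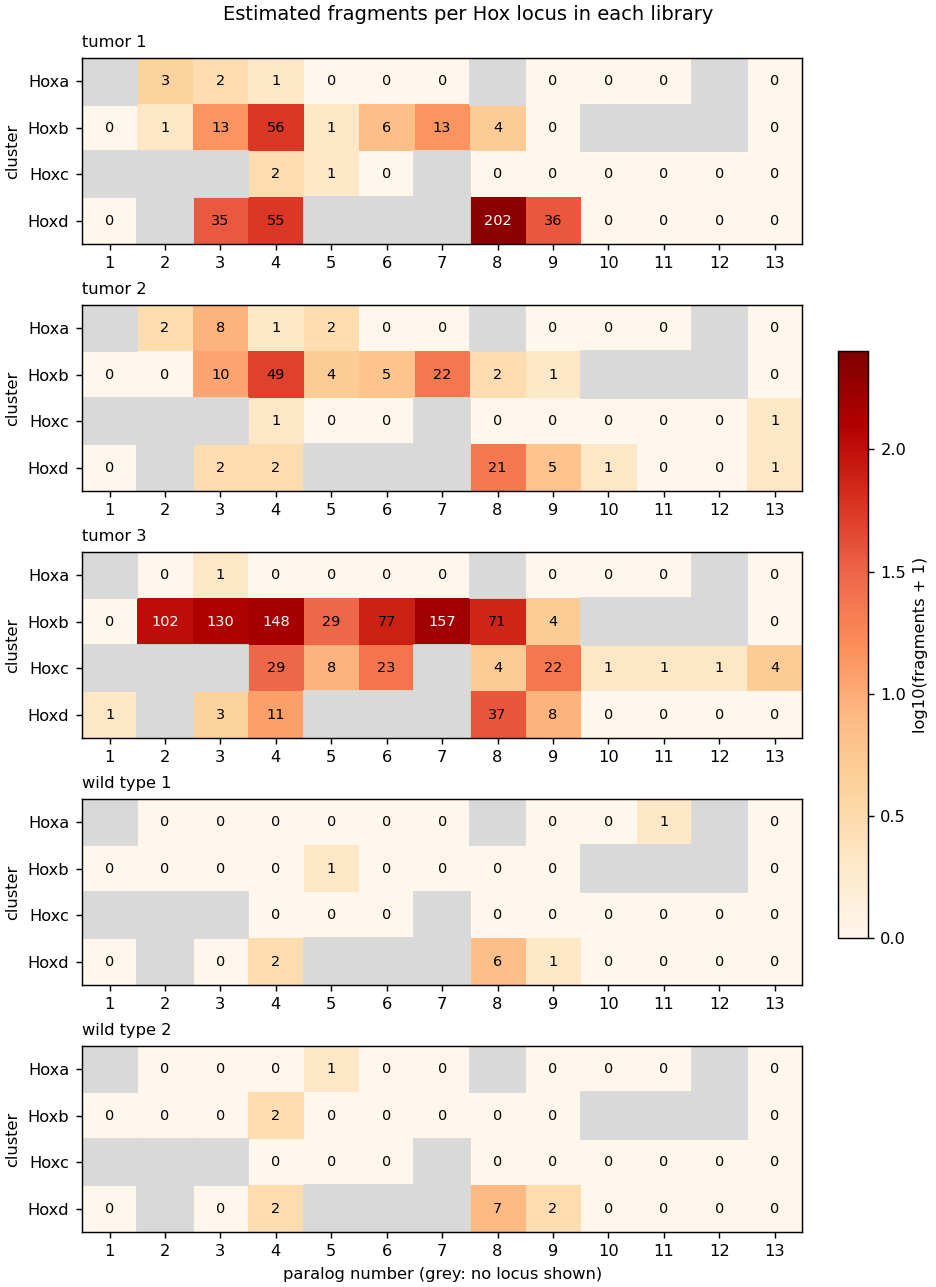
Estimated fragments (numbers and color, log10 of fragments + 1) for each Hox locus, with paralog number on the x axis and cluster on the y axis, and 1 panel for each library, tumors above wild type. Tumor 1 is highest at Hoxd8 (202 fragments), tumor 3 at Hoxb7 (157) along a filled Hoxb row, and wild type reaches at most 7 fragments.

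Only 5 of the 38 loci had enough fragments to enter the test across all named loci, and 33 did not. Hoxb4 passed, higher in tumors, and none of the 38 passed as lower. Of all 15241 loci tested, 18.7% were higher in tumors and 15.4% lower, 34.1% in all. The other 4 tested members were Hoxb3, Hoxb7, Hoxd4 and Hoxd8, and 4 of the 5 had an unadjusted p under 0.05, beside 48% of all tested loci. The tested Hox loci passed the filter on low counts through the tumors alone. Their median log2 fold change of 6.19, beside 0.048 over all tested loci, is thus a description and no support for a shift. The same holds for any share of these 5 loci set beside the share of all tested loci. DESeq2 called 4 of the same 5 loci (all but Hoxd4), against 24.2% of all tested loci called higher, and limma on log2(FPKM + 0.1) called 2 (Hoxb4 and Hoxb7), against 18.2%. Without a filter on low counts, 29 Hox loci were tested and 1 passed as higher, against 13.5% of 18630 loci, while 6 had an unadjusted p under 0.05, against 40.7%.

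In 10 of the 38 Hox loci every tumor library had more fragments than both wild-type libraries, beside 25.9% of all 23141 named loci, so the share was near the background. Among tested loci it was 4 of the 5 Hox loci, beside 37% of all. Those 5 passed the filter on low counts through the tumors alone, so this share is a description and no support for a shift. The 10 among all 38 loci were Hoxa3, Hoxb3, Hoxb4, Hoxb6, Hoxb7, Hoxb8, Hoxc4, Hoxd3, Hoxd8 and Hoxd9. Several rested on single fragments: Hoxa3 had 2, 8 and 1 fragments in tumors and 0 in both wild-type libraries, and Hoxc4 had 2, 1 and 29 against 0.

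Promoter sequence is shown for Hoxb4, which passed the test, and for Hoxb8 and Hoxd8, members of the same paralog number that were high in different tumors. RefSeq's table (GRCm38.p6, the same assembly as mm10) held windows for 22 of the 38 genes, 24 windows of 300 bases from 250 before to 50 after the start. The 250 bases before the start are printed 5′ to 3′ on the gene's strand, which is plus for all of them, and capitals mark a motif match. Hoxb4 is from chr11:96318017-96318266, Hoxb8 from chr11:96281655-96281904 and Hoxd8 from chr2:74704365-74704614.
Hoxb4: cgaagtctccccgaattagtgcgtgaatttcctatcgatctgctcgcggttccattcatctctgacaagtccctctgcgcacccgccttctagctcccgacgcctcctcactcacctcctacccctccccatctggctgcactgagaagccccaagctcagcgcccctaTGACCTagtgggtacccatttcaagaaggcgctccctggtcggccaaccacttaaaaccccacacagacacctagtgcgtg
Hoxb8: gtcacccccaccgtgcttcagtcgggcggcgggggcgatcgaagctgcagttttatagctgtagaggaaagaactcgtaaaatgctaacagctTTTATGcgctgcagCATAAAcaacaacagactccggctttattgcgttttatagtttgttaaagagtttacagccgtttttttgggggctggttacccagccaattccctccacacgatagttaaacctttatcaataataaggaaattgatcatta
Hoxd8: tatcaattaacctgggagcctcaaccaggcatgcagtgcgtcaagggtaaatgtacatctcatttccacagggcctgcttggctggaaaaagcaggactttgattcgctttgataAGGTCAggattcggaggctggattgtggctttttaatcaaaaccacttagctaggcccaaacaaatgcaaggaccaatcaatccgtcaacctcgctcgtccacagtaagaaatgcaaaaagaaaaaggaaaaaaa

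The capitals in Hoxb4 and Hoxd8 are the half-site of retinoic acid receptors, AGGTCA or its reverse complement, and those in Hoxb8 are a CDX motif, TTTATG, on both strands. Retinoic acid and the CDX factors are known inducers of Hox genes in the embryo. Searched on both strands, AGGTCA stood in 7 of the 24 Hox windows (of Hoxa5, Hoxb4, Hoxc4, Hoxd3, Hoxd4, Hoxd8 and Hoxd10), and in 16.26% of all 32851 windows. TTTATG stood in 5 (Hoxa7, Hoxb8, Hoxd3, Hoxd4 and Hoxd11), and in 11.85% of all windows. GGAATG, the core motif of the TEAD factors through which YAP and TAZ bind DNA, stood in 2 (Hoxa9 and Hoxd10), and in 14.66% of all. TGATTNAT, a joint motif of PBX and HOX proteins, stood in 2 (Hoxa2 and Hoxd11), and in 3.221% of all, and no motif overlapped another in the printed stretches. The median GC content was 57.67% in Hox windows and 52.67% in all windows, with a median of 14.5 and 7 CpG dinucleotides. A match is a description of letters, and binding was not measured.

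The Hoxa loci were close to 0. Hoxa2, which selects the identity of the second pharyngeal arch, had 3, 2 and 0 fragments in tumors and 0 in wild type. Hoxa3, needed for thymus and parathyroid, reached 8 fragments in tumor 2. Hoxa4 had 1, 1 and 0 in tumors and 0 in wild type, and Hoxa5, a gene of lung and neck development, had 0, 2 and 0 in tumors against 0 and 1 in wild type. Hoxa11, which patterns the forearm, had 1 fragment in wild type 1 and 0 in the other 4 libraries. Hoxa6, Hoxa7, Hoxa9, Hoxa10 and Hoxa13 had none in any library. Summed over these loci, levels were 0.456, 1.05 and 0.0707 CPM in tumors and 0.0739 and 0.0804 CPM in wild type, so tumor 3 overlapped wild type. Hoxa3, Hoxa4, Hoxa5 and Hoxa6 share 1 deposited span, so the split between them rests on the authors' estimate.

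In the Hoxb cluster, 8 of 10 loci reached 3 fragments in some tumor and 4 of them in every tumor (Hoxb3, Hoxb4, Hoxb6 and Hoxb7). Summed Hoxb levels were 7.15, 7.48 and 50.7 CPM in tumors and 0.0739 and 0.161 in wild type. Tumors 1 and 2 were alike, and tumor 3 was far above both. All values lay above wild type.

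Hoxb4, known for expanding blood stem cells when overexpressed, is a protein-coding gene at 96318267 to 96321638 of chromosome 11 (mm10, plus strand). It had 56, 49 and 148 fragments in tumors, against 0 and 2 in wild type. In FPKM it was at 1.67, 1.48 and 4.70 in tumors (2.61 ± 1.81, SD, n = 3) and at 0 and 0.0679 in wild type (0.0340 ± 0.0480, SD, n = 2). The groups did not overlap, with tumor 3 highest. Hoxb4 rose, with a log2 fold change of 6.19 (SE 1.23, edgeR adjusted p = 0.022). Without wild type 1 the log2 fold change was 5.17 (edgeR adjusted p = 0.133) and without wild type 2 it was 9.40 (edgeR adjusted p = 0.106). Without either wild-type library no locus of the whole table passed, with 26% and 25.4% of loci, and 1 of 14 Hox loci in each fit, at an unadjusted p under 0.05, so every call named here rests on both.

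Hoxb7, a trunk and kidney-duct gene, had 13, 22 and 157 fragments in tumors and 0 in both wild-type libraries. At 0.859, 1.47 and 11.1 FPKM in tumors it had the highest single Hox level by FPKM, in tumor 3, though not by CPM. Wild type was at 0. The groups did not overlap, and tumor 3 alone was far from the rest. Its tumor mean was at least 19.1-fold higher than 3 fragments in a wild-type library, or at least 5.72-fold without tumor 3, yet it did not pass (log2 fold change 9.02, SE 2.56, edgeR adjusted p = 0.064). Hoxb3, active in the hindbrain and pharyngeal arches, had 13, 10 and 130 fragments in tumors and 0 in wild type, or 0.287, 0.229 and 3.06 FPKM against 0. Tumor 3 was again far above the others, and Hoxb3 did not pass (8.69, SE 2.73, edgeR adjusted p = 0.079). With tumor 3 left out, both passed, Hoxb7 at 7.10 (edgeR adjusted p = 0.029) and Hoxb3 at 6.50 (edgeR adjusted p = 0.030), which made 3 Hox loci higher, against 18.7% of all loci in that fit.

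**Figure D2:**
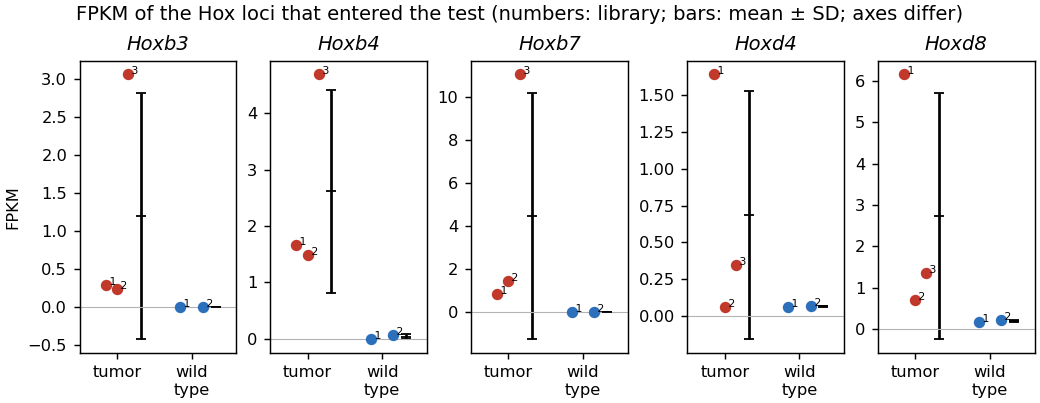
FPKM (y axis, a separate scale for each gene) of 5 Hox loci that entered the test, with tumors left of wild type, points numbered by library and bars giving mean ± SD (n = 3 and 2). Tumor 3 is highest for Hoxb3, Hoxb4 and Hoxb7, tumor 1 is highest for Hoxd4 and Hoxd8, and bars that cross 0 show an SD above the mean.

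Other Hoxb loci were carried mainly by tumor 3. Hoxb2, a hindbrain gene needed for facial nerve neurons, had 1, 0 and 102 fragments in tumors and 0 in wild type, or 0.0494, 0 and 5.37 FPKM in tumors. Hoxb6 had 6, 5 and 77 fragments in tumors and 0 in wild type, or 0.378, 0.319 and 5.17 FPKM in tumors. Hoxb8, known in mice for its role in grooming behavior and in myeloid progenitors, had 4, 2 and 71 fragments in tumors and 0 in wild type, or 0.115, 0.0584 and 2.18 FPKM in tumors. For each, tumor 3 held most fragments, and tumors 1 and 2 were near the limit of counting. Hoxb5, which acts in gut neural crest, had 1, 4 and 29 fragments in tumors and 1 and 0 in wild type, or 0.0416, 0.169 and 1.29 FPKM against 0.0440 and 0. Tumor 1 and wild type 1 overlapped there. Hoxb9, a rib patterning gene, had 0, 1 and 4 fragments in tumors and 0 in wild type. Hoxb1, which marks hindbrain identity at the facial nerve level, and Hoxb13, the tail and prostate gene at the far end, had none in any library.

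Hoxc transcripts were close to 0 outside tumor 3. Summed Hoxc levels were 0.228, 0.161 and 6.57 CPM in tumors and 0 in both wild-type libraries. In tumor 3, Hoxc4 had 29 fragments, Hoxc6 had 23, Hoxc9 had 22, Hoxc5 had 8 and Hoxc8 and Hoxc13 had 4 each. Hoxc6, Hoxc8 and Hoxc9 set the identity of limb-level and thoracic motor neurons, and Hoxc13 is a hair follicle regulator. Hoxc6, Hoxc8 and Hoxc9 had 0 fragments in tumors 1 and 2 and in both wild-type libraries. Hoxc4 was at 0.0790, 0.0401 and 1.22 FPKM in tumors and at 0 in wild type, and Hoxc6 was at 0, 0 and 1.24 FPKM in tumors and at 0 in wild type. Hoxc5 had 1 and 0 fragments in tumors 1 and 2, and Hoxc13 had 0 and 1. Hoxc10, which acts at lumbar level, Hoxc11 and Hoxc12 had 1 fragment each, all in tumor 3.

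In the Hoxd cluster tumor 1 was the high library. Summed Hoxd levels were 25.0, 2.57 and 4.24 CPM in tumors and 0.665 and 0.885 in wild type. The groups did not overlap, and Hoxd was the cluster with the most fragments in wild type.

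Hoxd8, a trunk gene on chromosome 2 from 74704615 to 74707933 (GENCODE M21 on the same assembly, plus strand), was the 1 Hox locus with at least 3 fragments in every library. It had 202, 21 and 37 fragments in tumors and 6 and 7 in wild type. In FPKM it was at 6.16, 0.701 and 1.35 in tumors (2.73 ± 2.98, SD, n = 3) and at 0.183 and 0.211 in wild type (0.197 ± 0.0198, SD, n = 2). Every tumor was above both wild-type libraries, with tumor 1 far above the others. Hoxd8 did not pass (log2 fold change 3.64, SE 1.24, edgeR adjusted p = 0.078), and without tumor 2 it passed at 4.09 (edgeR adjusted p = 0.042), which made 2 Hox loci higher, against 20.1% of all loci in that fit.

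Hoxd4, a neck vertebra gene with a known retinoic acid response element, had 55, 2 and 11 fragments in tumors and 2 in each wild-type library. At 1.64, 0.0605 and 0.350 FPKM in tumors and 0.0632 and 0.0681 FPKM in wild type, tumor 2 was at wild-type level and the groups overlapped (3.36, SE 1.57, edgeR adjusted p = 0.155). Hoxd3, which shapes the first neck vertebrae, had 35, 2 and 3 fragments in tumors and 0 in wild type, or 0.911, 0.0528 and 0.0833 FPKM in tumors. Hoxd9, a forelimb and lower trunk gene, had 36, 5 and 8 fragments in tumors and 1 and 2 in wild type, or 1.33, 0.188 and 0.316 FPKM against 0.0393 and 0.0847. Tumor 1 was again highest in both. Hoxd3, Hoxd4 and Hoxd8 share 1 span in the deposited table, and the annotated Hoxd3 and Hoxd4 overlap on 1 strand, so the split between them rests on the authors' estimate. The distal limb genes were near 0: Hoxd10 and Hoxd13 had 1 fragment each, in tumor 2, and Hoxd11 and Hoxd12 had none. Hoxd1 had 1 fragment, in tumor 3.

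**Figure D3:**
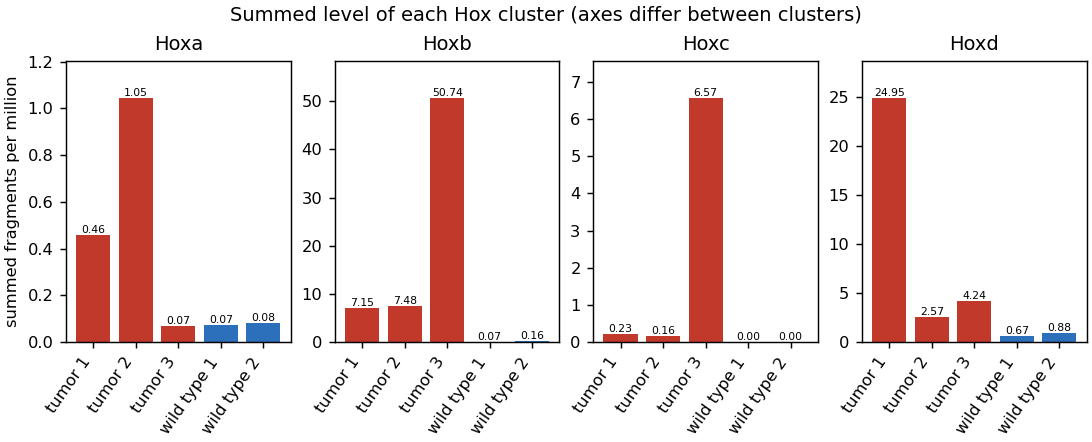
Summed CPM (y axis, a separate scale for each cluster) for the loci of each Hox cluster, with 1 bar for each library and tumors left of wild type. Tumor 1 is highest for Hoxd (25.0), tumor 3 for Hoxb (50.7) and Hoxc (6.57), and tumor 2 for the Hoxa loci described (1.05).

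The tumors thus differed in which cluster held their Hox fragments. Of the fragments at the 38 loci, Hoxd held 76.1% in tumor 1 (Wilson 95% interval 71.9 to 79.9). Hoxb held 66.4% in tumor 2 (58.3 to 73.7) and 82.3% in tumor 3 (79.7 to 84.7). The intervals of the Hoxb share, which cover counting error only, did not overlap between tumors, with 21.8% in tumor 1 (18.2 to 25.9). Of the 29 loci with any fragment, 18 were highest by CPM in tumor 3, and 8 loci reached 3 fragments in tumor 3 and in no other library. In wild type Hoxd held 9 of 11 and 11 of 14 fragments.

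By paralog number, the middle of the clusters held most fragments. Numbers 4 to 8 summed to 25.9, 8.76 and 42.0 CPM in tumors and 0.665 and 0.965 in wild type, and 11 of those 15 loci reached 3 fragments in some tumor. Numbers 1 to 3 summed to 4.11, 1.77 and 16.7 in tumors and 0 in both wild-type libraries, with 5 of 7 loci reaching 3 fragments. Numbers 9 to 13 summed to 2.74, 0.724 and 2.90 in tumors and 0.148 and 0.161 in wild type, with 4 of 16 loci (Hoxb9, Hoxc9, Hoxc13 and Hoxd9). Every tumor exceeded both wild-type libraries in each block. Loci with at least 3 fragments ran in Hoxb from paralog 3 to 8 in tumor 1, from 3 to 7 in tumor 2 and from 2 to 9 in tumor 3. In Hoxd they ran from 3 to 9 in tumors 1 and 3 and from 8 to 9 in tumor 2. No locus of numbers 10 to 12 reached 3 fragments in any library.

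Between the Hox genes, several loci without a gene name carried fragments. The largest lay in the Hoxa cluster, on chromosome 6 from 52158400 to 52162382 (mm10), and 93.4% of it overlapped Hotairm1, a noncoding RNA transcribed from the opposite strand to the Hoxa genes. It held 48.4, 61 and 102 estimated fragments in tumors and 1 and 0 in wild type, and a second unnamed locus of the same span held 2.58, 0 and 8.14 in tumors and 0 in wild type. The larger one was in every tumor. In a fit that kept unnamed loci, an alternative chosen after seeing the data, it passed at 6.79 (SE 0.96, edgeR adjusted p = 0.011). Over Hoxb5os, annotated opposite to Hoxb6, 4 unnamed loci held 6, 5 and 129 fragments in tumors and 0 in wild type, the order of the tumors at Hoxb6. In Hoxd, 1700109F18Rik (Hoxd3os1 in RefSeq) held 23, 0 and 4 fragments at its larger locus in tumors and 0 and 1 in wild type, with tumor 1 highest as for Hoxd3. The strand setting of the counting is not known here, so reads of these RNAs and of the genes they overlap cannot be told apart. The noncoding RNA Hotair, the microRNA genes Mir10a, Mir10b, Mir196a-1, Mir196a-2, Mir196b and Mir615 and the homeobox neighbours Evx1 and Evx2 were listed at 0 in all 5 libraries. The microRNA loci spanned 85 to 110 bases or shared a span with Hox genes. A 0 at them does not show that the microRNA was absent. Of the 13 loci that matched a list of noncoding RNAs of the clusters, 10 were at 0 and none entered the test.

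**Figure D4:**
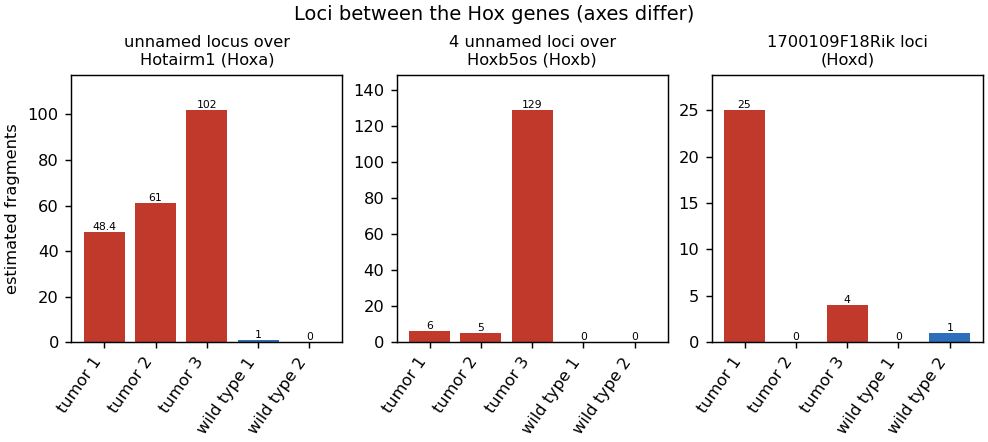
Estimated fragments (y axis, a separate scale for each panel) in loci between the Hox genes, with 1 bar for each library and tumors left of wild type. The locus over Hotairm1 is in every tumor (48.4 to 102), the loci over Hoxb5os are mainly in tumor 3 (129) and those of 1700109F18Rik mainly in tumor 1 (25 in both loci).

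HOX proteins bind DNA with PBX and MEIS partners. Of 8 cofactor genes, all tested, 1 rose and 2 fell, with a median log2 fold change of 0.13. Meis3 rose (15.1 to 19.4 FPKM in tumors, 9.20 and 9.70 in wild type, log2 fold change 1.09, edgeR adjusted p = 0.014). Pbx3 fell (6.06 to 6.69 against 12.6 and 12.8 FPKM, −1.02, edgeR adjusted p = 0.011). Meis1 fell (1.02, 4.19 and 1.20 FPKM against 12.6 and 12.4, −2.50, edgeR adjusted p = 0.044), but did not pass without tumor 1 (edgeR adjusted p = 0.082) or tumor 3 (0.078).

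Polycomb and trithorax complexes hold the Hox clusters silent or active. Of 31 Polycomb genes, all tested, 5 rose and 5 fell (median 0.01), near the 18.7% higher and 15.4% lower over all tested loci. The methyltransferase gene Ezh2 of PRC2 rose (7.55 ± 0.828 FPKM in tumors, 3.43 ± 0.0426 in wild type, log2 fold change 1.16, edgeR adjusted p = 0.017), as did its partner Eed (0.97, edgeR adjusted p = 0.017). Genes of PRC1 were called in both directions: Pcgf3 rose (0.92, edgeR adjusted p = 0.011), while Phc1 (−1.49, edgeR adjusted p = 0.013) and Pcgf2 (−1.02, edgeR adjusted p = 0.031) fell. Named after their values were seen, Cbx2 (1.25, edgeR adjusted p = 0.036) and Cbx8 (1.01, edgeR adjusted p = 0.044) of PRC1 rose. Named in the same way, Ezh1 of PRC2 fell (−0.54, edgeR adjusted p = 0.035). So did Cbx7 (−1.28, edgeR adjusted p = 0.048) and Ring1 (−0.46, edgeR adjusted p = 0.0499) of PRC1. Pcgf2 did not pass without tumor 1 (edgeR adjusted p = 0.056) or tumor 3 (0.057). Of 19 trithorax and MLL genes, all tested, 2 rose and 1 fell (median −0.18), a smaller share than over all tested loci. Of the super elongation complex, Mllt3 rose (1.91, edgeR adjusted p = 0.013) and Aff1 fell (−1.24, edgeR adjusted p = 0.039), but Aff1 did not pass without tumor 2 (edgeR adjusted p = 0.056). Psip1, whose protein tethers MLL to chromatin, rose by 0.46 (edgeR adjusted p = 0.044) and did not pass without tumor 2 (edgeR adjusted p = 0.072) or tumor 3 (0.057).

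Of 18 loci of known upstream regulators, 12 were tested, 3 rose and 3 fell (median −0.05). The hindbrain factor Egr2, also a myeloid gene, rose (3.20, edgeR adjusted p = 0.021), as did Gbx2 (6.12, edgeR adjusted p = 0.017). The growth factor gene Gdf11 fell (−2.59, edgeR adjusted p = 0.014). Of the retinoic acid receptor genes, Rara rose (0.95, edgeR adjusted p = 0.029) and Rarg did not pass (0.87, edgeR adjusted p = 0.077). Rarb, named after its values were seen, fell (−1.51, edgeR adjusted p = 0.045). The smaller locus of Ctcf fell (−2.14, edgeR adjusted p = 0.028), while the larger did not pass (−0.14, edgeR adjusted p = 0.475). Cdx2, Cdx4 and T, inducers of posterior Hox genes, had no fragment in any library. Of the ParaHox genes, relatives of the Hox clusters, only Gsx2 was tested and fell, at 0.0481, 0 and 0.0514 FPKM in tumors and 55.6 and 44.6 FPKM in wild type (−10.27, edgeR adjusted p = 0.0029).

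Factors of the eye and anterior head, which lies in front of the Hox domain, summed to 241, 670 and 108 CPM in tumors and 1388 and 1346 in wild type. Of 29 loci 21 were tested, 1 rose and 3 fell (median −0.44). Otx2, the forebrain and eye pigment epithelium factor, was at 0.0193, 4.32 and 0.148 FPKM in tumors and 179 and 178 FPKM in wild type (−6.63, edgeR adjusted p = 0.048), and without tumor 1 or tumor 3 it did not pass (edgeR adjusted p = 0.069 and 0.067). Among the 12 tested loci of genes flanking the clusters, 3 rose and 2 fell (median 0.43). Skap2 beside Hoxa (2.39, edgeR adjusted p = 0.0072) and both loci of Skap1 beside Hoxb (3.69 and 4.43) rose. Both genes encode adaptor proteins of immune cells. Calcoco1 beside Hoxc (−2.06, edgeR adjusted p = 0.0072) and Hibadh beside Hoxa (−0.94, edgeR adjusted p = 0.037) fell.

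Markers of other cell types moved between the groups as well. Summed leukocyte markers were at 1590, 1269 and 2225 CPM in tumors and 550 and 603 in wild type, with 12 of 19 tested loci higher and 1 lower. Summed fibroblast markers were at 16283, 13141 and 20715 in tumors and 4460 and 4897 in wild type, with 8 of 15 higher and 2 lower. Both sums stood in the order of the summed Hox level, tumor 3 above tumor 1 above tumor 2, but the medians over the same lists did not. Median log2(CPM + 1) was 3.18, 3.51 and 3.69 for leukocyte markers in tumors and 1.35 and 1.43 in wild type. For fibroblast markers it was 7.78, 8.12 and 7.04 in tumors, lowest in tumor 3, and 6.02 and 6.20 in wild type. Skeletal muscle markers summed to 12043, 1007 and 787 in tumors and 811 and 806 in wild type, with 2 of 16 higher, and tumor 1, the high library, was also the one high in Hoxd. Endothelial markers summed to 652, 489 and 305 in tumors and 706 and 719 in wild type, with 2 of 10 lower. The list of uveal melanocyte markers summed to 91.2, 210 and 31.4 in tumors and 11691 and 11625 in wild type, with 8 of 9 lower. Slc45a2 was at 0 in tumor 3. Sox10 did not pass, at 18.5, 49.1 and 1.73 FPKM in tumors and 84.3 and 79.3 in wild type (edgeR adjusted p = 0.288). Which pigmented cells carried the list was not tested. No locus of these 5 lists, tested or not, was at 0 in all 5 libraries, and the part of any of these cells in the Hox levels was not tested.

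**Figure D5:**
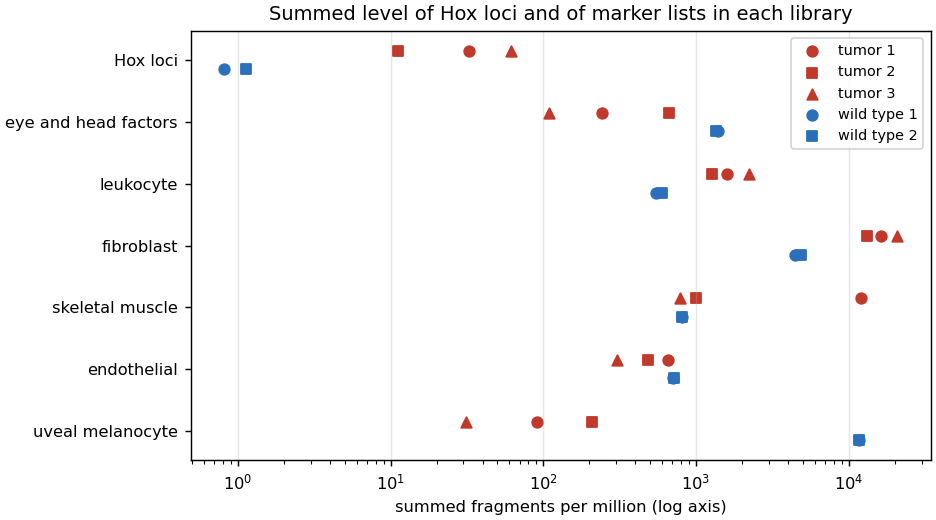
Summed CPM (x axis, log scale) of the Hox loci and of lists of markers in each library, with tumors drawn above wild type within each list and shapes naming the library. Hox, leukocyte and fibroblast sums are higher in every tumor than in wild type, muscle is high in tumor 1 alone (12043), and melanocyte sums are lower in every tumor.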

How the data were processed

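RNA-seq of whole tissue was deposited as tables per locus. Per the labels' protocols, Trizol was used for extraction and an Illumina TruSeq RNA kit for libraries. The submitters' processing notes name build mm10 and the tools Cuffdiff, Cufflinks 2.2.1 and TopHat2 2.0.9. Which annotation, filters and strand setting went with them is not given in the sources used here. Per the file headers, the authors deposited an unscaled estimated count of fragments for each replicate and locus, and an FPKM scaled by the authors for transcript length and depth. The deposited group count table was not used here.

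Condition names gave the groups. Of the estimated counts, 98.6% to 98.7% lay within 0.01 of a whole number, and all were rounded. The 1627 unnamed loci (1.52% to 4.37% of fragments) stayed out of library sizes and tests. The 23141 named loci entered edgeR 4.0.16 (R 4.3.3), with filterByExpr at a minimum count of 10, TMM factors (1.04, 1.08 and 0.909 in tumors, 0.982 and 1.00 in wild type) and the two-sided quasi-likelihood F-test, tumor against wild type, with Benjamini-Hochberg adjustment over 15241 loci and a threshold of 0.05. The scripts were tested on simulated data. A standard error is the log2 fold change over the root of F. CPM are relative to fragments at named loci, and a fold against a group at 0 uses 3 fragments in the shallower wild-type library. Shares have Wilson intervals at 95%. Alternatives were DESeq2 1.42.0, library size alone, no filter, limma 3.58.1 on log2(FPKM + 1) or log2(FPKM + 0.1), a prior count of 2, loci with a single name, and each library left out. Of the loci found, 1 Hox locus and 2 genes of the lists entered the fits and are not reported here. Hox loci were detailed where they passed or were among the 12 with the highest mean FPKM. Of 13 other lists (cofactors, regulators, neighbours, noncoding loci and cell type markers), up to 5 called members with the smallest p could be named. Members and lists were chosen with earlier results of these data known. GENCODE M21 and RefSeq gave positions, names and promoters.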

Additional observations from a re-analysis of the deposited data

Results flagged for a closer look

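Outside the named loci, 7 loci without a gene name lie between the outermost Hox genes with more fragments on average in tumors than in either wild-type library. XLOC_017707, over Hotairm1, averaged 70.4 fragments in tumors, and XLOC_018321 of the same span averaged 3.57. Of the loci over Hoxb5os, XLOC_004307 averaged 14, XLOC_004308 averaged 10.3, XLOC_004309 averaged 12 and XLOC_004310 averaged 10.3 fragments in tumors, against 0 in wild type, and nearly all were from tumor 3. XLOC_004306, a locus of 94 bases over the processed pseudogene Gm11539, lies between Hoxb9 and Hoxb13. It averaged 10.3 fragments in tumors (11, 4 and 16) against 4 and 1 in wild type, so tumor 2 and wild type 1 were level. It did not pass in the fit with unnamed loci (log2 fold change 1.96, SE 0.93, edgeR adjusted p = 0.159). Strand was not known for these counts.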

How the results depend on the processing

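No result changed its direction under the alternatives run. The count of Hox loci higher in tumors, 1 with edgeR, was 4 with DESeq2, 2 on log2(FPKM + 0.1) and 0 to 3 when 1 library was left out: 3 without tumor 3, 2 without tumor 2 and 0 without either wild-type library, where 4085 and 3996 of all loci and 1 Hox locus had an unadjusted p under 0.05. Calls over all loci, 5201, ranged from 0 to 6144 when 1 library was left out. With 1 wild-type library, that library is assumed to vary like the tumors. The median log2 fold change of tested Hox loci, 6.19, was 3.84 without a filter, 2.88 on log2(FPKM + 0.1), 1.35 on log2(FPKM + 1) and 0.15 on that scale without a filter, and 5.98 to 7.79 when 1 library was left out. At 3 fragments in any library rather than every library, 20 Hox loci were detected in tumors, against 6, and at a minimum of 10 fragments 0 were detected in wild type, against 1. Summed in FPKM, wild-type levels were 0.423 for all clusters, 0.0422 for Hoxa and 0.325 for Hoxd. Without TMM, Meis1, Pcgf2, Psip1, Otx1 and Otx2 did not pass (edgeR adjusted p from 0.051 to 0.061), nor did Otx2 (0.051) and Psip1 (0.059) without a filter. Psip1 also did not pass on the log2(FPKM) scales (limma adjusted p from 0.122 to 0.129). No paired analysis was possible because the replicate numbers of the table are not tied to those of the labels. At these depths a Hox level below about 0.2 CPM could not be told from 0, and 2 against 3 libraries limit every test.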
